A study of Saccharomyces cerevisiae with 4 samples.

Results

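Msn2 and Msn4 are the zinc-finger transcription factors of the general stress response of budding yeast. The genes examined were MSN2 and MSN4 themselves and 8 classic targets outside the carbohydrate stores, HSP12, CTT1, DDR2, SOL4, GAD1, TMA10, MSC1 and RTN2. They were taken by gene name, in a choice made with earlier results of these data known. All 10 were found among the 6782 gene rows of the table. All 10 had a mean of at least 1 CPM, so none was lost to the filter on low values. RNA came from cells of the W303 background whose LEU2 locus held a single copy of 6xIAPP under an estradiol-inducible promoter. IAPP stands for islet amyloid polypeptide, an amyloid-forming hormone of the pancreas. The induced group was 2 cultures given 100 nM estradiol for 6 h, and the uninduced group was 2 cultures given the solvent DMSO for 6 h, all kept in log phase. All 4 cultures carried the construct, and no library of cells without the construct was analysed here, so effects of the inducer and of the construct cannot be told apart.

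In unstressed cells protein kinase A keeps Msn2 and Msn4 largely in the cytoplasm. Under heat, oxidative, osmotic or starvation stress they enter the nucleus and bind a short stress response element, AGGGG on either strand, in front of their targets. The targets protect membranes, remove peroxide and adjust metabolism, and in acute stress they typically rise together while genes of ribosome production fall. mRNA totals, as measured here, do not show where the factors are in the cell.

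The 4 libraries held 10397606 to 15582338 recovered reads, and replicates lay close, with log2 differences within a pair that had an SD of 0.11 (induced) and 0.12 (uninduced) over the 5017 genes averaging at least 20 CPM. Levels below are normalized CPM, reads scaled by the authors to effective library sizes, which differ from the plain read totals. Each log2 fold change is the induced mean minus the uninduced mean of log2(CPM + 1), given with its SE, and this scale makes the change of a gene at low level look smaller. It comes from a limma fit over 6037 genes. A call is an adjusted p under 0.05. None of the rows was named IAPP. LEU2, the locus of integration, was at 0.812 and 0.642 CPM in the induced libraries, against 6.33 and 6.71 CPM in the uninduced libraries.

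Of the 10 genes, 8 fell and 2 rose in the induced cultures. This is to be read against a transcriptome in which 37.0% of genes tested fell and 35.6% rose, and with total-count scaling 29.4% fell and 44.1% rose. The induced libraries did not overlap the uninduced libraries in any of the 10, which was so for 86.0% of genes tested. In bulk RNA, less mRNA per cell and fewer cells that express a gene cannot be told apart. The median log2 fold change was -0.62 for the 10 genes and -0.00042 for all genes tested. HSP12 and TMA10 were the members that rose, and DDR2, CTT1 and MSN4 fell by at least 2-fold, as did 7.22% of genes tested. In the authors' deposited table, with its own adjusted p under 0.05, 6 of the 10 were lower and 2 higher, where 19.4% of all rows were lower and 19.0% higher. MSN2 (adjusted p = 0.0919) and MSC1 (adjusted p = 0.491) were the members that the authors' deposited table did not call.

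**Figure D1:**
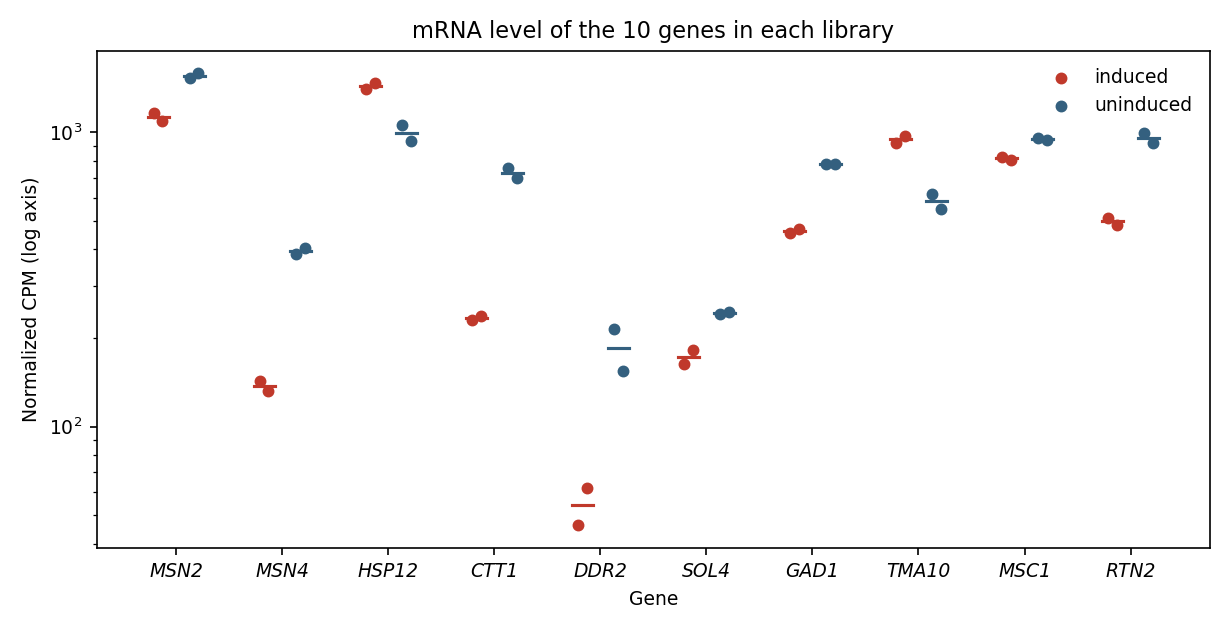
Normalized CPM (log axis) of the 10 genes in the 2 induced and 2 uninduced libraries, with points for libraries and bars for means. The induced libraries lie above the uninduced ones for HSP12 and TMA10 and below them for the other 8.

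The transcription factor genes both fell, and by unequal amounts. MSN2 (chromosome XIII, 344403 to 346517, minus strand) had 1161 and 1092 CPM in the induced libraries, against 1531 and 1585 CPM in the uninduced libraries. MSN4 (chromosome XI, 323228 to 325120, plus strand), its duplicate gene, had 142 and 132 CPM in the induced libraries, against 385 and 404 CPM in the uninduced libraries. Induced libraries were lower for each gene, with no overlap. The log2 fold change was -0.47 ± 0.058 for MSN2 (adjusted p = 9.92e-06) and -1.52 ± 0.054 for MSN4 (adjusted p = 1.31e-10). MSN4 mRNA was 0.123 and 0.121 times that of MSN2 in the induced libraries, and 0.251 and 0.255 times in the uninduced libraries. The log2 ratio of MSN4 to MSN2 was -3.03 ± 0.016 in induced and -1.98 ± 0.013 in uninduced cultures (SD, n = 2 each), a difference of -1.05 with p = 0.333 in a two-sided exact permutation test, the smallest p that 2 against 2 libraries can give. After quantile normalization the fall of MSN2 was smaller, -0.17 on the log2 scale (adjusted p = 0.00448).

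HSP12 and DDR2 moved in opposite directions. HSP12 (chromosome VI, 107256 to 107585, plus strand) encodes a small disordered protein that protects membranes and is among the most strongly stress-induced genes of yeast. It had 1399 and 1473 CPM in the induced libraries, against 1061 and 935 CPM in the uninduced libraries. DDR2 (chromosome XV, 231570 to 231755, minus strand) encodes a small protein induced by DNA damage, heat and other stresses. It had 46.3 and 61.7 CPM in the induced libraries, against 215 and 154 CPM in the uninduced libraries. HSP12 was therefore higher, and DDR2 lower, in both induced libraries than in either uninduced library. The log2 fold change was 0.53 ± 0.066 for HSP12 (95% interval 0.38 to 0.67, adjusted p = 1.17e-05) and -1.75 ± 0.14 for DDR2 (95% interval -2.05 to -1.45, adjusted p = 1.51e-07). After quantile normalization HSP12 had 0.83 on the same scale. DDR2 was the most variable of the 10 between replicates: library 2 differed from library 1 by 0.41 in the induced pair and by -0.48 in the uninduced pair on the log2 scale. The next largest of these differences among the other 9 genes was -0.18, for HSP12 in the uninduced pair.

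Within a library the CPM of HSP12 was 30.2 and 23.9 times that of DDR2 in the induced cultures, against 4.93 and 6.07 times in the uninduced cultures. The coding lengths are 330 and 186 bases, so this ratio is to be compared between groups and is not a ratio of mRNA molecules. The log2 ratio was 4.72 ± 0.24 in induced and 2.45 ± 0.21 in uninduced cultures (SD, n = 2 each). The difference of 2.28 exceeded the spread between replicates, with p = 0.333 in a two-sided exact permutation test, again the smallest p possible. Leaving out each library in turn, it ran from 2.11 to 2.44. A ratio within a library does not depend on the size factor of that library, apart from the pseudocount.

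Promoter sequences are shown for these 2 genes because both carry several copies of the stress response element and the mRNAs went opposite ways. They are from the S288C reference genome in the R64 build and not from W303, and are written in the direction of the gene, with AGGGG or its reverse complement CCCCT in capitals. The HSP12 stretch (chrVI:106821-107120, plus strand) runs from base 435 to base 136 before the start codon, and the DDR2 stretch (chrXV:231756-232055, minus strand) is the 300 bases before the start codon, which hold 3 of its 4 matches.
HSP12: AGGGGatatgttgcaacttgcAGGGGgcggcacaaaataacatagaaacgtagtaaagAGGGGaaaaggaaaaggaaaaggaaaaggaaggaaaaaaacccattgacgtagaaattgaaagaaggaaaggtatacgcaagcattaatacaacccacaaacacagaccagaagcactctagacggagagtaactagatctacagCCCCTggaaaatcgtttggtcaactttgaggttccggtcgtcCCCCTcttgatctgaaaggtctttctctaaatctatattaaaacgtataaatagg
DDR2: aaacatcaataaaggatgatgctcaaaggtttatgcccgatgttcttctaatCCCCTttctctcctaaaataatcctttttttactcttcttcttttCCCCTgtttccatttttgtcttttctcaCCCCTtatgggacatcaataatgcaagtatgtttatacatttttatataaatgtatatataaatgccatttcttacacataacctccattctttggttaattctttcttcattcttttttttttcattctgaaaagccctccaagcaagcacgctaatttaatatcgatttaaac

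In the 500 bases before the start codon the element matched 5 times for HSP12, at 435, 414, 377, 232 and 190 bases, and 4 times for DDR2, at 472, 248, 203 and 175 bases. Of the HSP12 matches, 3 lie inside the annotated gene YFL015C on the opposite strand. All 4 matches of DDR2 read CCCCT in the direction of the gene, while HSP12 has 3 matches as AGGGG and 2 as CCCCT. At least 1 match was found in 34.2% of 5967 promoter windows of this length, at least 4 in 0.452% and at least 5 in 0.201%. A window that reaches a divergent neighbour counts for both genes, and a match is a string of letters and not a shown binding site.

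TMA10 was the other target that rose. TMA10 (chromosome XII, 783127 to 783387, minus strand) encodes a small ribosome-associated protein of unknown function. It had 921 and 971 CPM in the induced libraries, against 617 and 547 CPM in the uninduced libraries, a log2 fold change of 0.70 ± 0.062 (adjusted p = 4.26e-07). Its duplicate STF2, whose product helps cells survive drying, averaged 1582 ± 1.97 CPM in induced and 819 ± 2.16 CPM in uninduced cultures (SD, n = 2 each) and rose as well (0.95, adjusted p = 4.95e-09). The rise of the pair was shared in direction, with TMA10 at 0.583 and 0.613 times STF2 in the induced libraries, against 0.752 and 0.670 times in the uninduced libraries.

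CTT1 had the largest fall after DDR2 in the main fit, an order that was not settled. Without induced library 1 the log2 fold changes were -1.61 for CTT1, -1.57 for MSN4 and -1.545 for DDR2. CTT1 (chromosome VII, 654634 to 656322, plus strand) encodes the cytosolic catalase, which breaks down hydrogen peroxide and is a standard readout of the response. It had 230.0 and 237 CPM in the induced libraries, against 754 and 700.0 CPM in the uninduced libraries, so that the groups lay far apart (-1.63 ± 0.052, adjusted p = 5.22e-11). CTA1, the peroxisomal catalase, averaged 20.3 ± 0.00118 CPM in induced and 10.7 ± 1.42 CPM in uninduced cultures and rose (0.87, adjusted p = 2.46e-05). CTT1 mRNA was 11.3 and 11.7 times that of CTA1 in the induced libraries, against 64.3 and 72.0 times in the uninduced libraries. The CTT1 promoter matched the element 3 times, at 378, 363 and 133 bases before the start codon, and the stretch that spans them (chrVII:654256-654505, plus strand) is shown because the match count lies between those of the other targets.
CTT1: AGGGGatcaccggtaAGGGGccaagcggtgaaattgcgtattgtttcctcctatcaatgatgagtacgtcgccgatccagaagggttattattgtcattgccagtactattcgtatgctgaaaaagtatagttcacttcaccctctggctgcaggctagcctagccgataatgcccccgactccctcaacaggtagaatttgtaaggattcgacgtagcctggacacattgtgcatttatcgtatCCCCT

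The 4 remaining targets fell by smaller steps. GAD1 (chromosome XIII, 770801 to 772558, plus strand), the glutamate decarboxylase that opens the route from glutamate to GABA, had 455 and 469 CPM in the induced libraries, against 778 and 778 CPM in the uninduced libraries (-0.75 ± 0.049, adjusted p = 2.09e-08). RTN2 (chromosome IV, 94605 to 95786, plus strand), a reticulon that shapes tubules of the endoplasmic reticulum, had 512 and 483 CPM in the induced libraries, against 997 and 922 CPM in the uninduced libraries (-0.95 ± 0.056, adjusted p = 9.81e-09). In each the induced libraries lay well below the uninduced ones. SOL4 (chromosome VII, 985972 to 986739, plus strand), a 6-phosphogluconolactonase of the pentose phosphate pathway, had 164 and 182 CPM in the induced libraries, against 241 and 245 CPM in the uninduced libraries (-0.49 ± 0.057, adjusted p = 5.61e-06). MSC1 (chromosome XIII, 15135 to 16676, minus strand), a gene known for an effect on meiotic recombination, had 827 and 807 CPM in the induced libraries, against 958 and 938 CPM in the uninduced libraries (-0.22 ± 0.051, adjusted p = 0.00213). MSC1 had the smallest change of the 10, and its call was the least firm: it ended with total-count scaling (-0.09, adjusted p = 0.122), after quantile normalization (0.015, adjusted p = 0.753) and against a 1.2-fold change (adjusted p = 1), with adjusted p between 0.00019 and 1 over all its alternatives.

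Near relatives of these genes did not always share their direction. SOL3, the duplicate of SOL4 and a source of the same enzyme activity, averaged 195 ± 7.05 CPM in induced and 153 ± 2.76 CPM in uninduced cultures and rose (0.35, adjusted p = 5.55e-05), though not against a 1.2-fold change (adjusted p = 0.133, range over its alternatives 2.8e-06 to 0.133). SOL4 was at 0.865 and 0.910 times SOL3 in the induced libraries, against 1.60 and 1.58 times in the uninduced libraries, so the order of the pair differed between groups. RTN1, the major reticulon gene, was at 889.6 ± 49.6 CPM in induced and 924 ± 5.64 CPM in uninduced cultures (-0.06, 95% interval -0.18 to 0.06, adjusted p = 0.378). Its sign was not settled: it stood at 0.070 with total-count scaling (adjusted p = 0.251) and at 0.00064 without induced library 2 (adjusted p = 0.994), and it passed as higher after quantile normalization (0.16, adjusted p = 0.00956, range over its alternatives 0.00956 to 1). HOR7, the duplicate of DDR2, averaged 222 ± 17.8 CPM in induced and 493 ± 13.6 CPM in uninduced cultures and fell (-1.15, adjusted p = 2.37e-09), in the same direction as DDR2. Over the 7 gene pairs compared, each had libraries of the 2 groups apart and p = 0.333 in the exact permutation test, before and after adjustment over the pairs, which is the smallest possible. Of single genes tested, 86.0% also had the groups apart, and the share over other gene pairs was not counted.

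**Figure D2:**
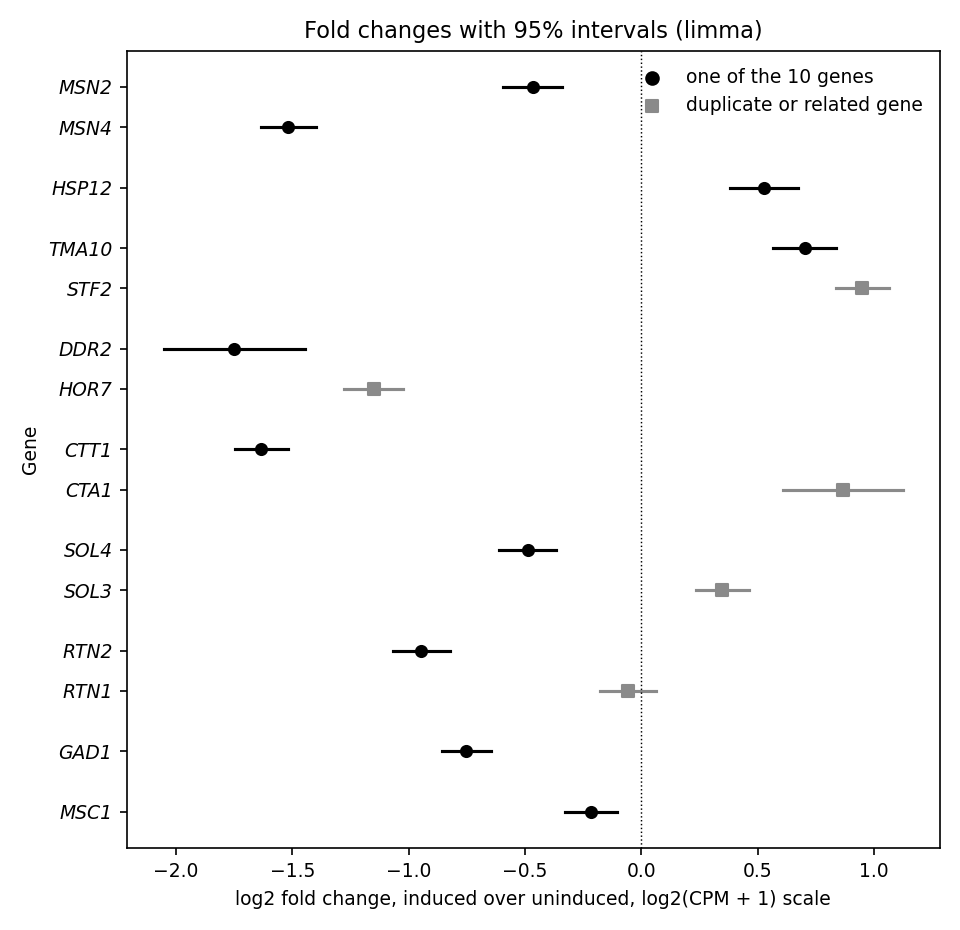
Log2 fold change of the 10 genes (black circles) and 5 duplicate or related genes (grey squares), with 95% intervals from limma. TMA10 and STF2 lie above 0 and DDR2 and HOR7 below it, while CTT1 and CTA1, and SOL4 and SOL3, lie on opposite sides.

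**Figure D3:**
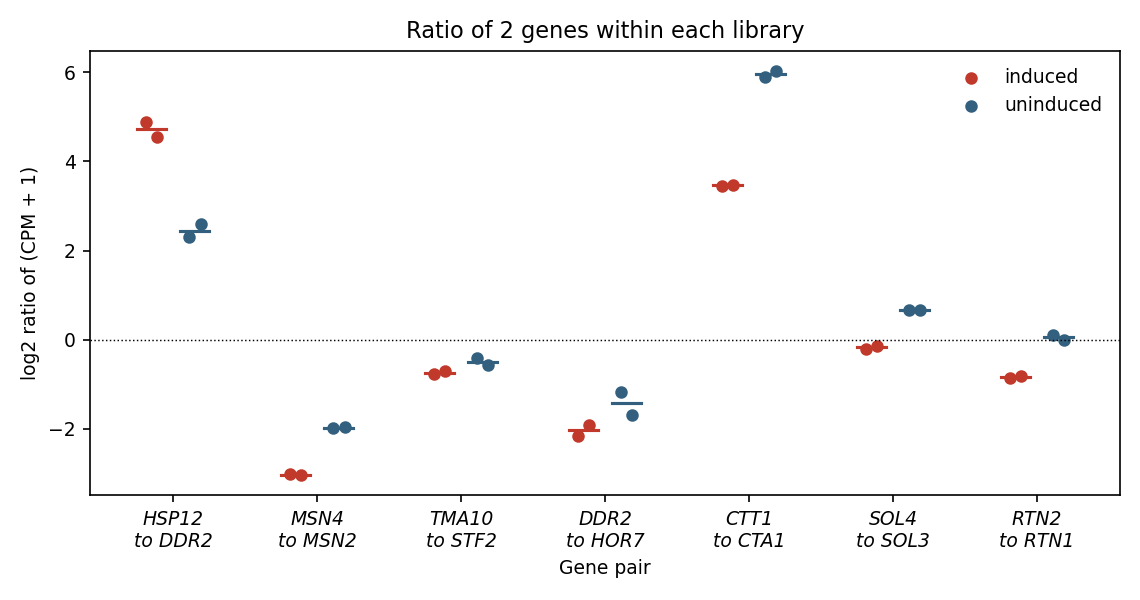
Log2 ratio of 2 genes within each library, with induced left of uninduced, points for libraries and bars for means. The ratio of HSP12 to DDR2 was 4.72 in induced and 2.45 in uninduced cultures, and that of CTT1 to CTA1 was 3.46 in induced and 5.96 in uninduced cultures.

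The element was present in front of each of the 8 targets and in front of neither transcription factor gene, in windows of 500 bases. The next gene upstream lies 993 bases from MSN2 and 1709 bases from MSN4. Elements between the window and that gene were not searched for. TMA10, SOL4, GAD1 and RTN2 had 1 match each and MSC1 had 2. These sites are shown with 10 bases on each side, in the direction of the gene, so that their flanks can be compared. They lie at chrXII:783711-783735 (TMA10, minus strand), chrVII:985836-985860 (SOL4, plus strand), chrXIII:770628-770652 (GAD1, plus strand), chrXIII:16864-16888 and chrXIII:16794-16818 (MSC1, minus strand) and chrIV:94435-94459 (RTN2, plus strand).
TMA10: gagccaccccCCCCTcaggagtaaa
SOL4: aaaaaatcccCCCCTaagcagcgaa
GAD1: caccagaaaaAGGGGatcagtaaag
MSC1, far site: ctcaccttagAGGGGaagaataagg
MSC1, near site: aggcggtgaaAGGGGatcgacaggg
RTN2: taggcaatctCCCCTtattgttcac

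Matches of the element were set beside calls over the 5709 genes tested that had a promoter window. Of genes with no match, 38.3% fell and 35.5% rose, and of genes with 1 match, 37.5% fell and 37.9% rose. With 3 matches, 38 of 81 genes fell and 31 rose. With 4 or more, 17 of 25 fell and 4 rose (68.0% and 16.0%), with a median log2 fold change of -0.30, against -0.0097 over all windows. DDR2 was among the 17 and HSP12 among the 4. The count of 17 was 12 after quantile normalization, 15 with total-count scaling and 10 against a 1.2-fold change, alternatives chosen for this count after seeing the data, and under them 36.6%, 30.3% and 24.0% of all windows fell. The median of the 25 genes was -0.086 after quantile normalization and -0.18 with total-count scaling. This is a description, without a test.

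**Figure D4:**
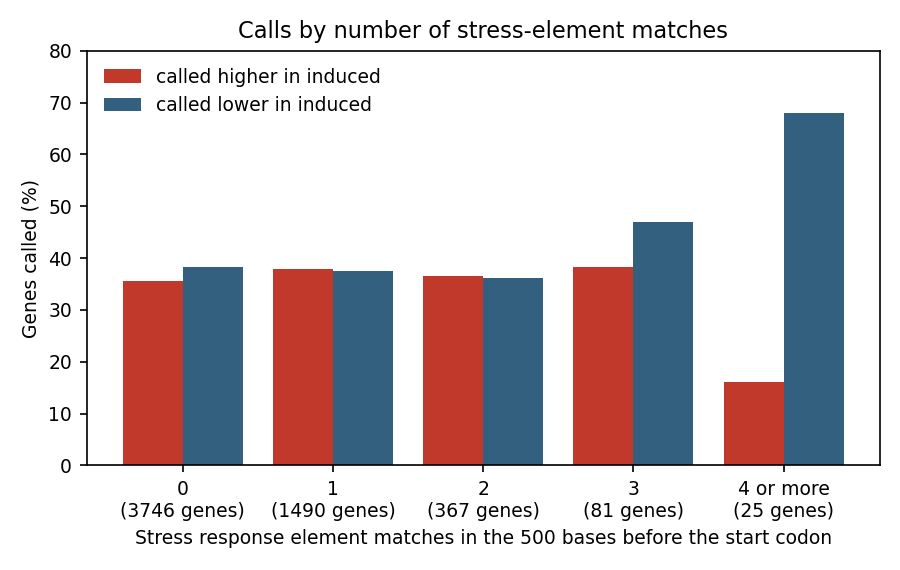
Percentage of genes called higher and called lower in the induced cultures, by the number of stress response element matches in the 500 bases before the start codon. Genes with 4 or more matches were called lower in 68.0% and higher in 16.0%, whereas the shares for 0, 1 and 2 matches lie between 35.5% and 38.3%.

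Levels were compared between genes per kilobase of coding length. In induced cultures HSP12 stood highest, at 4351 ± 158 CPM per kilobase, followed by TMA10 at 3626 ± 136. MSN2 (533 ± 22.9) and MSC1 (529.6 ± 9.24) came next and overlapped each other. RTN2 (421 ± 17.2) preceded DDR2 (290.4 ± 58.7) and GAD1 (263 ± 5.64), which overlapped, and then SOL4 (225 ± 16.3), CTT1 (138 ± 2.93) and MSN4 (72.5 ± 3.97). In uninduced cultures HSP12 (3024 ± 270) and TMA10 (2231 ± 189) again led, but DDR2 was the third (992 ± 232), overlapping RTN2 (812 ± 45.2), and CTT1 (430.4 ± 22.5) overlapped GAD1 (442 ± 0.135). MSN2 (737 ± 17.9), MSC1 (615 ± 9.14), SOL4 (316 ± 3.63) and MSN4 (208 ± 6.94) did not overlap their neighbours (SD, n = 2 throughout). Among 5709 genes ranked per kilobase, HSP12 held rank 11 in induced and 30 in uninduced cultures and TMA10 rank 14 in induced and 50 in uninduced cultures. DDR2 held rank 644 in induced and 199 in uninduced cultures, and CTT1 rank 1430 in induced and 457 in uninduced cultures. Coding length leaves out untranslated ends, which weigh more in short genes such as DDR2, HSP12 and TMA10.

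Summed over the 8 targets, mRNA came to 4554 and 4683 CPM in the induced libraries, against 5621 and 5219 CPM in the uninduced libraries. This sum depends on the scaling, since all rows summed to 949572 and 945865 CPM in induced and 1026833 and 1041888 CPM in uninduced libraries. HSP12 and TMA10 together averaged 2382 CPM in induced and 1580 CPM in uninduced cultures. The 6 targets that fell together averaged 2236 CPM in induced and 3840 CPM in uninduced cultures. Both sets were formed by the direction of change in these same libraries, so the direction of each sum followed from that choice.

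Other general stress genes under Msn2 and Msn4 control moved in both directions, in shares near those of all genes. Of 40 such genes tested, HOR7 and STF2 among them, 17 rose and 16 fell (42.5% and 40.0%, where 35.6% of all genes rose and 37.0% fell), with a median of 0.01 on the log2 scale. Against a 1.2-fold change 12 rose and 10 fell, where 21.3% of all genes rose and 23.2% fell. YGP1, a secreted glycoprotein gene, averaged 199.6 ± 11.1 CPM in induced and 1383 ± 38.0 CPM in uninduced cultures (-2.79, adjusted p = 8.88e-13). SPI1, a cell wall protein gene, was at 166 ± 1.49 CPM in induced and 743 ± 2.51 CPM in uninduced cultures (-2.15), and HSP31, a methylglyoxal-detoxifying enzyme gene, at 67.7 CPM in induced and 239 CPM in uninduced cultures (-1.81). Among those that rose were AMS1, the vacuolar alpha-mannosidase gene, at 505 ± 11.0 CPM in induced and 149 ± 9.05 CPM in uninduced cultures (1.75), and RTC3 at 850.0 ± 77.1 CPM in induced and 284 ± 8.35 CPM in uninduced cultures (1.57). Of 6 heat shock genes under joint control of Hsf1 and Msn2 and Msn4, 5 fell and 1 rose. Of all genes, 37.0% fell and 35.6% rose. The falls included HSP26 at -2.88, SSA4 at -1.56 and HSP104 at -0.96 (-0.63 after quantile normalization). The gene that rose was at 0.96.

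Of 32 genes that regulate Msn2 and Msn4, 14 fell and 8 rose, where 37.0% and 35.6% of all genes did so. The median of the 32 was -0.04. Scaled to total counts, 12 fell and 14 rose, where 29.4% of all genes fell and 44.1% rose. Against a 1.2-fold change 7 fell and 3 rose, where 23.2% of all genes fell and 21.3% rose. The largest changes were in RAS1, a small GTPase that activates adenylate cyclase (30.1 ± 0.766 CPM in induced and 89.5 ± 9.17 CPM in uninduced cultures, -1.54), and RGS2, which switches off the glucose-sensing G protein Gpa2 (43.6 ± 0.654 CPM in induced and 19.3 ± 1.67 CPM in uninduced cultures, 1.14). SNF1, the kinase of glucose starvation, fell (-0.63). Around GAD1, 3 of 4 listed genes linked to GABA use fell and 1 rose, where 37.0% of all genes fell and 35.6% rose. Against a 1.2-fold change 2 fell and 0 rose, where 23.2% of all genes fell and 21.3% rose. The GABA permease gene UGA4 was at 5.31 CPM in induced and 10.6 CPM in uninduced cultures (-0.88). The shunt enzyme genes went opposite ways, with UGA2 at -0.48 and the transaminase gene UGA1 at 0.38. UGA1 did not pass against a 1.2-fold change (adjusted p = 0.0743, range over its alternatives 1.88e-07 to 0.0743). Around SOL4, 5 of 10 pentose phosphate genes rose and 4 fell, near the shares over all genes. In the test against a 1.2-fold change 1 of them rose and 2 fell, where 21.3% of all genes rose and 23.2% fell. Among the pentose phosphate genes were RKI1 at -1.92, GND2 at 111 CPM in induced and 47.8 CPM in uninduced cultures and TKL2 at -0.63. Around RTN2, the tubule-shaping genes LNP1 (0.39), SEY1 (-0.35) and YOP1 (0.20) passed the test, and none of these 3 passed against a 1.2-fold change (adjusted p = 0.0756, 0.112 and 1). With total-count scaling SEY1 had -0.22 and YOP1 0.33, and after quantile normalization YOP1 had 0.32.

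**Figure D5:**
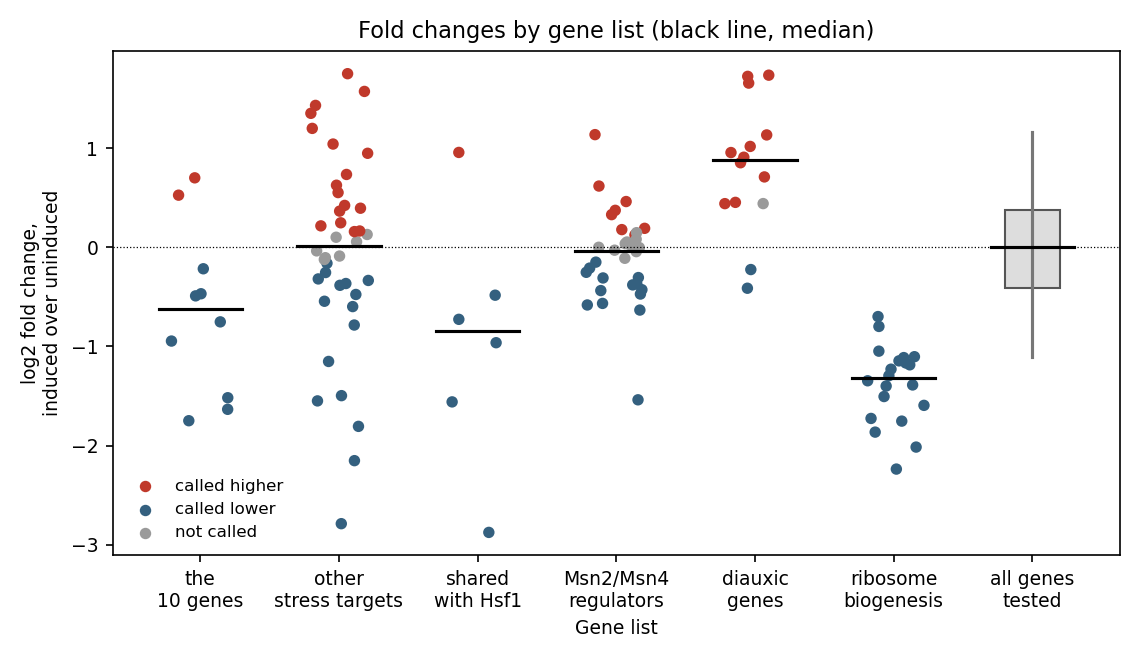
Log2 fold changes of the genes of 6 lists, coloured by call, with black lines at medians; at the right the box spans the quartiles of all genes tested and its line the 5th to 95th percentiles. The median is -0.62 for the 10 genes, 0.01 for other stress targets and -1.32 for ribosome biogenesis genes.

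In the acute stress response the targets rise while ribosome biogenesis genes fall. Here all 20 ribosome biogenesis genes looked at fell (median -1.32, range -2.24 to -0.70), led by DBP2 at -2.24, NSR1 at -2.02 and HAS1 at -1.86. Of all genes tested, 37.0% fell and 35.6% rose. Genes that come up once glucose is used up rose in 11 of 14 cases and fell in 2 (median 0.88), led by POX1 (12.0 CPM in induced and 2.89 CPM in uninduced cultures), IDP2 (78.5 CPM in induced and 23.1 CPM in uninduced cultures) and MLS1 (14.2 CPM in induced and 3.82 CPM in uninduced cultures). Their summed level was 1528 to 1598 CPM in the induced libraries and 1569 to 1672 CPM in the uninduced libraries. Most of that sum came from the 2 that fell, ADH2, the alcohol dehydrogenase of ethanol use (456 ± 30.2 CPM in induced and 606 ± 3.16 CPM in uninduced cultures, -0.41), and ALD4, the mitochondrial aldehyde dehydrogenase (683 ± 48.8 CPM in induced and 797.7 ± 56.5 CPM in uninduced cultures, -0.22). ADH2 had -0.24 after quantile normalization. The authors' deposited table called neither ADH2 (adjusted p = 0.151) nor ALD4 (adjusted p = 0.471). ALD4 lost its call with total-count scaling (adjusted p = 0.193), after quantile normalization (adjusted p = 0.975), without a variance trend (adjusted p = 0.0580), against a 1.2-fold change (adjusted p = 1) and without induced library 2 (adjusted p = 0.104, range over its alternatives 0.000219 to 1). The part of these genes in the values of the 10 genes was not tested.

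Among the 5017 genes averaging at least 20 CPM, those nearest to HSP12 in their centred log2 values over the 4 libraries were SEN2, UBC8 and WSS1 (distances 0.024, 0.027 and 0.034 on the log2 scale, log2 fold changes 0.50, 0.51 and 0.56). Those nearest to DDR2 were ICY1, BDH2 and LYS1 (each at a distance of 0.38, log2 fold changes -1.96, -1.65 and -1.65). Over 4 libraries such nearness says only that the changes were of like size.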

How the data were processed

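RNA of 4 libraries was measured, 2 induced and 2 uninduced. Libraries were grouped by the description in their labels. Hot acid phenol extraction and a stranded mRNA library kit are given per the labels' protocols. The submitters' processing notes name TopHat2 version 2.0.13, HTSeq, edgeR and the builds sacCer3 and R64, with no roles. The strand setting of the counting is not given in the sources used here, and no other annotated gene overlaps the span of any of the 10 genes in R64.

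Per the file headers, the authors deposited CPM. The deposited signal is scaled to effective library sizes, since columns sum to 949572 and 945865 (induced) and 1026833 and 1041888 (uninduced). The authors' deposited log2 fold change and p-values were used as a description. They called fewer genes than the limma fit, also outside the 10 genes. Among genes called by limma, the deposited adjusted p was 0.139 for SOL3, 0.115 for UGA1 and 0.105 for SEY1. It was 0.501 for YOP1, 0.402 for ZWF1 and 0.0639 for TKL2. Every value was a whole multiple of the worth of 1 read within 0.001 reads (100% of values in each column), so reads were recovered. In uninduced library 2 that step, 0.1002 CPM, is close to a round number, which makes this weaker evidence there. A count of 3 reads corresponds to 0.193 to 0.301 CPM, and all 10 genes lie far above it. Replicates differed by more than sampling noise (chi-square per degree of freedom 4.94 for the induced pair and 4.68 for the uninduced pair).

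limma (version 3.58.1, R 4.3.3) was fitted on log2(CPM + 1) over genes with a mean of at least 1 CPM, which left out 745 rows, with a group term, a variance trend over intensity, two-sided tests and Benjamini-Hochberg adjustment. The planned test assumed plain CPM and was kept for the scaled values. Gene ratios were tested with exact permutation tests (scipy version 1.17.1). Recovered reads were also fitted with edgeR (version 4.0.16) and DESeq2 (version 1.42.0). The fits were also run on simulated data in which few genes changed, in equal numbers each way. That setting differs from the shares called here, so the run does not bear on the choice of scaling. Promoters are the 500 bases before the start codon in the R64 reference, for 5967 genes matched by their systematic name.

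The genes and lists were chosen with earlier results of these data known. Named are the 10 genes, 5 duplicates or relatives, from each list the 3 called genes with the largest change, LEU2, and the 3 genes nearest in profile to HSP12 and to DDR2. SGA1, ZWF1, YGR122W, AMS1, RTC3, ADH2 and ALD4 were named after their values were seen.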

Additional observations from a re-analysis of the deposited data

How the results depend on the processing

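For the 10 genes, 147 of 150 values over 15 alternatives kept direction and side of the threshold, and the other 3 are those of MSC1 given above. For the 43 other named genes 629 of 644 did so, and the 15 others belong to RTN1, ALD4, YOP1, SOL3, UGA1, LNP1, SEY1 and ZWF1. After quantile normalization MSC1 had 0.015 and RTN1 0.16, opposite in sign to their main values, and RTN1 was also positive with total-count scaling and without induced library 2, as given above. The test against a 1.2-fold change left 1286 genes higher and 1399 lower over all genes, against 2152 and 2235 with the test against 0, and 27 genes of the related lists higher, against 44, since it asks for a larger change. Total-count scaling moved the median of all genes to 0.12 and gave 2664 genes higher and 1776 lower. With each library left out in turn, 1874 to 2096 genes were higher and 2012 to 2160 lower, 8 of the 10 genes fell and 2 rose each time, and in the related lists 38 to 43 rose and 63 to 66 fell. YOP1 lost its call without uninduced library 1 (0.13, adjusted p = 0.0569). The labels give no shared source for equal replicate numbers, and the correlation of same-numbered libraries' deviations was -0.0088. With the replicate number as a block, 2219 genes were higher and 2293 lower, and the same counts of 8 lower and 2 higher held for the 10 genes. With 2 libraries a group, an exact test cannot pass 0.05.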

Other observations

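Beside HSP12, the genes with 4 or more element matches that rose were YGR122W, ZWF1 and SGA1. ZWF1, the glucose-6-phosphate dehydrogenase that stands a step before SOL4 in the pentose phosphate pathway, averaged 473 CPM in induced and 406 CPM in uninduced cultures (0.22, adjusted p = 0.001). ZWF1 had 0.35 with total-count scaling and 0.39 after quantile normalization, and did not pass against a 1.2-fold change (adjusted p = 1, range over its alternatives 2.35e-05 to 1). SGA1, a glucoamylase known from sporulation, averaged 91.4 CPM in induced and 20.1 CPM in uninduced cultures (2.13). YGR122W was at 70.5 CPM in induced and 49.0 CPM in uninduced cultures (0.52). These genes were picked for their values, so the counts are given without a test.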
